A study of Mus musculus with 15 samples.

Results

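Hsd3b6 and 5 further genes of steroid synthesis (Hsd3b1, Cyp11a1, Star, Fdx1 and Srd5a1) were followed through palate development in the mouse. They are 6 of the 54232 genes counted, and were taken by symbol. The set was chosen by the measured levels of Hsd3b6, which is lost by the day of birth (P0), to ask which steroid genes share this. Its levels between stages are therefore given as a description without a test. RNA came from the secondary palate, the tissue that parts the mouth from the nasal cavity, of wild-type (WT) mice. The groups were P0 and the embryonic days E13.5, E14.5, E15.5 and E16.5, with no mutant and no treatment. A stage had 3 libraries, prepared from pools of 3 embryos, so that the spread given here is between pools and single embryos cannot be resolved.

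Steroid hormones are made from cholesterol in steps that alternate between the mitochondrion and the endoplasmic reticulum. Star, the steroidogenic acute regulatory protein, carries cholesterol to the inner mitochondrial membrane, where Cyp11a1 cleaves its side chain to give pregnenolone, with electrons passed on by the ferredoxin Fdx1. The 3β-hydroxysteroid dehydrogenases (3β-HSD) then turn pregnenolone into progesterone, and Srd5a1, a 5α-reductase, reduces progesterone and testosterone. In the mouse, Hsd3b1 is known from the adrenal gland and gonads, and Hsd3b6 from the adrenal zona glomerulosa, skin and the giant cells of the trophoblast.

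Hsd3b6 and Hsd3b1 are neighbours in the 3β-HSD gene cluster, and they are the members whose counts reached 0 by P0. Hsd3b6 (ENSMUSG00000027869.14) lies on the minus strand of chromosome 3 from 98805504 to 98814443, and Hsd3b1 (ENSMUSG00000027871.16) on the same strand from 98852194 to 98859794 (GRCm38). The 250 bases before each start site are shown because this pair went to 0. They were taken from RefSeq on GRCm38.p6 and are written 5′ to 3′ on the strand of the gene. The first covers chr3:98814444-98814693 and the second chr3:98859795-98860044. Capitals mark matches on either strand to 4 GATA-type words. These are AGATAA and TGATAA, which end in A, with their variants AGATAG and TGATAG, which end in G.
Hsd3b6: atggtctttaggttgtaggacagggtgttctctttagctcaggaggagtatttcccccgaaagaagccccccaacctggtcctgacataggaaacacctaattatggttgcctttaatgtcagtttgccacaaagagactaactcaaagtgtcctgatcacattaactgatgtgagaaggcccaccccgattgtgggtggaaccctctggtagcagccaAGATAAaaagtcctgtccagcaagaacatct
Hsd3b1: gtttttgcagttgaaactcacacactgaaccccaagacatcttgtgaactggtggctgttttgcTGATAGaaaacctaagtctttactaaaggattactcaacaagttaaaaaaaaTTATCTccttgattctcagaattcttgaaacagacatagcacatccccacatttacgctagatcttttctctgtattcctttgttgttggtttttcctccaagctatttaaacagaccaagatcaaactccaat

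The word in the Hsd3b6 window begins 31 bases before the start site, at -31. The Hsd3b1 window holds TGATAG at -186 and, on the other strand, AGATAA at -134, which is printed as TTATCT. At least 1 of the 4 words is present in 26.5% of all 32851 RefSeq promoter windows of this length. A match of this kind is common and describes the letters only. The nuclear receptor word AAGGTCA (in 4.08% of windows) and TATAAA (in 12.4%) were in neither window. Of the 6 members, 5 had a promoter entry, and Star had none.

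Hsd3b6 was lower at each later stage until no fragment was left. At E13.5 it had 488, 837 and 1297 counts in the 3 libraries, which are 6.99, 11.8 and 19.3 CPM (counts scaled to a library total of 1e6, with totals adjusted by TMM, the trimmed mean of M values). At E14.5 the counts were 153, 199 and 333. At E15.5 they were 8, 12 and 13, at E16.5 they were 5, 0 and 2, and all 3 P0 libraries had 0. The stages did not overlap from E13.5 to E15.5, nor did E15.5 and E16.5, whereas E16.5 and P0 both held libraries at 0.

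Averaged over libraries, Hsd3b6 had 12.7 ± 6.18 CPM (SD, n = 3) at E13.5 and 3.36 ± 1.19 at E14.5. It then had 0.167 ± 0.0284 at E15.5 and 0.0523 ± 0.0540 at E16.5. From pooled counts, the level at E14.5 was 3.71-fold lower than at E13.5 (95% interval 3.41 to 4.04), and that at E15.5 was 20.2-fold lower than at E14.5 (14.2 to 29.5). The step from E14.5 to E15.5, across the time at which the palate shelves meet and fuse, was thus the larger of these steps. E16.5 was 2.97-fold below E15.5 (1.29 to 7.96), and here the interval is wide because only 7 and 33 counts enter. Against the floor of 3 counts over the 3 P0 libraries (0.0327 CPM), P0 was at least 386-fold lower than E13.5. These intervals and floors cover counting error only and not the spread between pools. In bulk tissue, fewer cells of a type and less RNA per cell cannot be told apart.

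**Figure D1:**
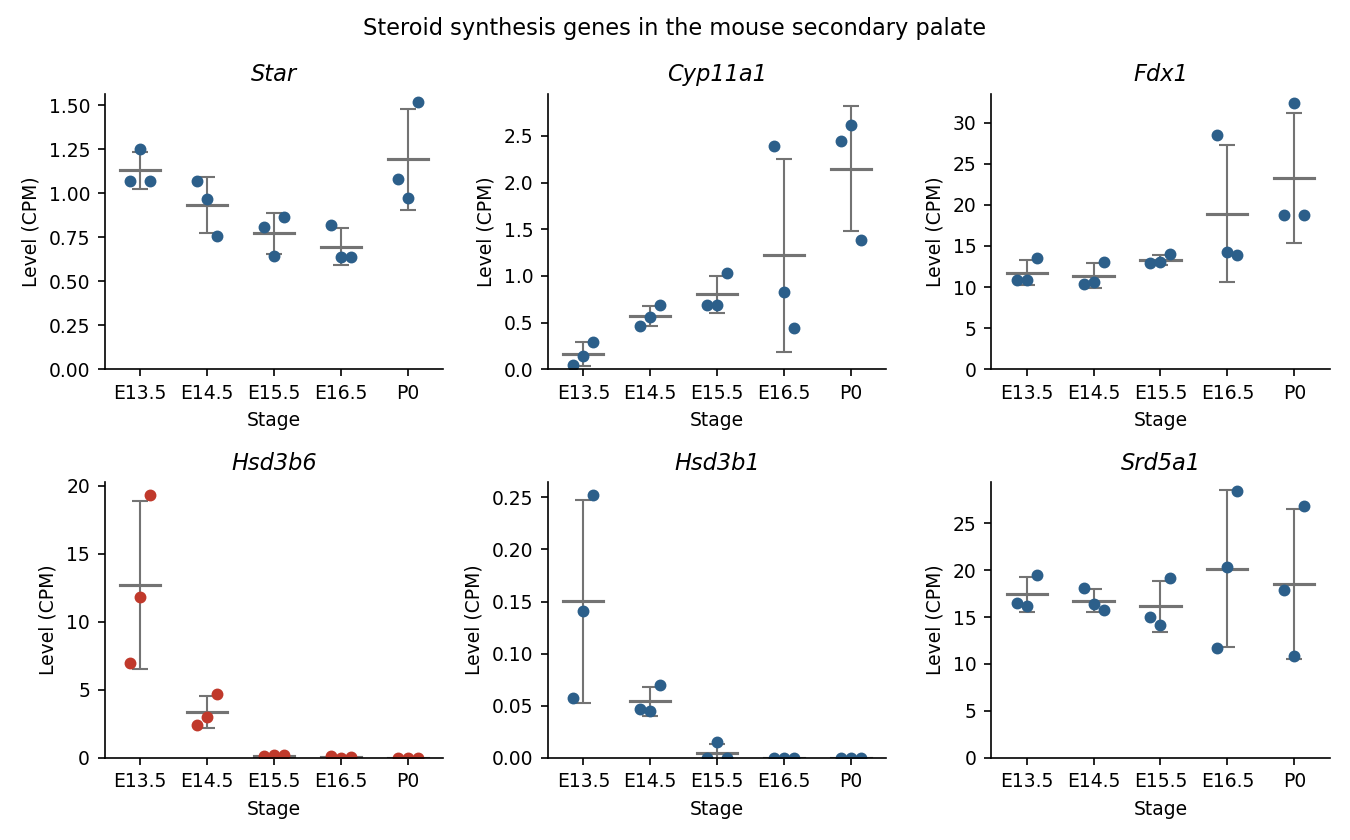
Level (CPM) of the 6 members in each of the 15 libraries by stage. Points are libraries 1 to 3 from left to right, horizontal lines are stage means and bars are 1 SD (n = 3). Hsd3b6 and Hsd3b1 reach 0 at P0, Cyp11a1 and Fdx1 are higher at P0 than at E13.5, and Star and Srd5a1 at P0 overlap their E13.5 values.

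Hsd3b1 was far scarcer and also went to 0, and whether its course differed from that of Hsd3b6 was not tested. Its counts were 4, 10 and 17 at E13.5, then 3, 3 and 5 at E14.5, and 1 E15.5 library had 1 count. No fragment of it was counted at E16.5 or P0. Unlike those of Hsd3b6, its E13.5 and E14.5 libraries overlapped (lowest 0.0573 and highest 0.0702 CPM). P0 was at least 4.56-fold lower than E13.5 by the same floor.

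Within E13.5 the libraries stood in the same order for both genes, and Hsd3b1 counts were 0.82% to 1.96% of Hsd3b6 counts in the 6 libraries of E13.5 and E14.5. The genes are near-identical in places: 2.10% of the 50-base windows of the longest Hsd3b1 transcript occur in Hsd3b6 transcripts, and 2.17% the other way round. With 43 Hsd3b1 counts in all, how many came from misassigned Hsd3b6 fragments was not tested. Hsd3b1 did not pass the filter on low counts and so was not tested in the fit reported here. In the edgeR quasi-likelihood fit with no filter, over 37998 genes, it was lower at P0 than at E13.5 with an adjusted p of 0.0092, and the size of that fitted fold depends on the prior count.

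The other genes of the cluster gave no comparable signal. Hsd3b2, Hsd3b4, Hsd3b5, Gm4450 and Gm10681 had 0 counts in all 15 libraries, and Hsd3b3 had 1. Because 16% of the windows of Hsd3b6 occur in some other gene of the cluster, fragments that map to several places may be missing from its counts.

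The other tested members did not fall as Hsd3b6 did. Of the 4 (Star, Cyp11a1, Fdx1 and Srd5a1), 0 were at least 2-fold lower at P0 than at E13.5 with an adjusted p under 0.05 in edgeR's quasi-likelihood test, against 13.7% of the 22151 genes tested. With either direction counted, 2 of the 4 changed, both upward, against a background of 56.6% of all tested genes (29.8% higher and 26.8% lower). DESeq2 also called 2, and 2 had an unadjusted p under 0.05. A share of 2 in 4 lies near that background and marks nothing particular about these genes. The median log2 fold change of all tested genes was 0.03.

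Star, the cholesterol carrier at the head of the pathway (ENSMUSG00000031574.8, chromosome 8, plus strand, 25806555 to 25815982), was low throughout. Its levels were 1.07, 1.25 and 1.07 CPM at E13.5, 1.07, 0.968 and 0.758 at E14.5, and 0.809, 0.641 and 0.867 at E15.5. They were 0.820, 0.636 and 0.636 at E16.5 and 1.08, 0.975 and 1.52 at P0. The P0 libraries lay above all 3 E16.5 libraries and overlapped those of E13.5.

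The log2 fold change of Star was 0.07 (SE 0.24) for P0 against E13.5, with an adjusted p of 0.822 in edgeR. For P0 against E16.5 it was 0.76 (SE 0.25), and the adjusted p of 0.236 did not pass. Over all stages together its adjusted p was 0.0529.

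Cyp11a1, the side-chain cleavage enzyme (ENSMUSG00000032323.13, chromosome 9, plus strand, 58006411 to 58027023), moved opposite to Hsd3b6. Its counts at E13.5 were 3, 10 and 20, or 0.0430, 0.141 and 0.297 CPM. The level was 0.467, 0.560 and 0.688 CPM at E14.5 and 0.691, 0.685 and 1.03 at E15.5. At E16.5 it was 2.39, 0.830 and 0.440, and at P0 it was 2.44, 2.62 and 1.39. All P0 libraries were above all E13.5 libraries, and E16.5 was widely spread, with its first library close to the P0 level and replicate 3 below the E14.5 libraries.

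Cyp11a1 rose from E13.5 to P0 by 3.74 on the log2 scale (SE 0.67), a 13.3-fold change, with an adjusted p of 0.000535 in edgeR. It passed the filter on low counts through the stages at which it was high. The adjusted p stayed between 0.000624 and 0.00385 in the 6 fits that left out 1 library of the contrast each. No step between neighbouring stages passed on its own. The first, E14.5 against E13.5, had a log2 fold change of 1.83 (SE 0.65) and an adjusted p of 0.22.

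Fdx1, the electron donor of Cyp11a1 and of other mitochondrial P450 enzymes (ENSMUSG00000032051.9, chromosome 9, minus strand, 51943306 to 51963556), was present at every stage. It had 10.9, 10.8 and 13.5 CPM at E13.5, 10.4, 10.6 and 13.1 at E14.5, and 12.9, 13 and 14 at E15.5. At E16.5 it had 28.5, 14.3 and 13.9, and at P0 18.7, 32.4 and 18.7. The first E16.5 library and the second P0 library stood well above their partners, while all P0 libraries exceeded all E13.5 libraries.

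Fdx1 was higher at P0 than at E13.5 by 0.99 on the log2 scale (SE 0.28), with an adjusted p of 0.0105 in edgeR. Without the second P0 library the change was 0.69 and the adjusted p 0.056, which did not pass. In the fit that left out that library and the first E16.5 library together, the change was 0.69 with an adjusted p of 0.0033; this fit was added after the data were seen.

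Srd5a1, the 5α-reductase (ENSMUSG00000021594.11, chromosome 13, minus strand, 69573449 to 69611442), had 16.5, 16.2 and 19.5 CPM at E13.5, 18.1, 16.4 and 15.7 at E14.5, and 15, 14.2 and 19.2 at E15.5. At E16.5 it had 11.7, 20.3 and 28.4, and at P0 17.9, 10.8 and 26.8. The same 2 libraries that were highest for Fdx1 were the lowest of their stages for Srd5a1. Its log2 fold change of P0 against E13.5 was 0.09 (SE 0.32), with an adjusted p of 0.827 in edgeR, and over all stages its adjusted p was 0.876.

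Those 2 libraries stood apart in other genes too. The summed level of 7 pituitary markers was 1500 CPM in the first E16.5 library and 3040 CPM in the second P0 library, mostly growth hormone RNA (Gh, 1200 and 2690 CPM), against 4.63 to 92.4 CPM in the other 13 libraries. The part of this in the levels of Fdx1 and Srd5a1 was not tested. Depth was 21.5 to 69.0 M (1e6) counts per library, with a median of 61.0 M. Markers of palate mesenchyme were present throughout, with summed levels of 614 to 1010 CPM at E13.5 and 261 to 367 CPM at P0. Of these markers, 6 of 9 were lower at P0, with 26.8% of all tested genes lower. Markers of oral epithelium were at 233 to 540 CPM at E13.5 and 972 to 3120 CPM at P0. Of these, 4 of 6 were higher, with 29.8% of all tested genes higher.

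Between neighbouring stages, 0 of the 4 tested members changed in any of the 4 contrasts by edgeR's test, and DESeq2 also called 0 in each. The share of all tested genes called was 0.00903% for E14.5 against E13.5, 26.1% for E15.5 against E14.5, 1.41% for E16.5 against E15.5 and 0.352% for P0 against E16.5. At an unadjusted p under 0.05, 1 member passed in the first of these contrasts (Cyp11a1), 1 in the last (Star) and 0 in the remaining 2. Over all 5 stages, edgeR's F test called 2 of 4 (Cyp11a1, adjusted p of 0.00375, and Fdx1, 0.0195), with 59.1% of all tested genes called, and DESeq2 called 3.

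Scaled by gene length, the order of the members turned over. At E13.5, Hsd3b6 had 3.88 to 10.7 CPM per kilobase, which overlapped Srd5a1 (5.57 to 6.70) and Fdx1 (3.48 to 4.35). Srd5a1 lay above Fdx1 without overlap. Star followed at 0.260 to 0.304, Hsd3b1 at 0.0309 to 0.136 and Cyp11a1 at 0.00895 to 0.0618, the last 2 overlapping. At P0, Fdx1 (6.02 to 10.4) and Srd5a1 (3.71 to 9.21) overlapped at the top, Cyp11a1 (0.289 to 0.545) and Star (0.237 to 0.370) overlapped below them, and Hsd3b6 and Hsd3b1 were at 0. The side-chain cleavage enzyme was thus lowest where this 3β-HSD was highest.

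The genes whose levels ran most like that of Hsd3b6 were sought among 16518 tested genes with a mean of at least 1 CPM, by Pearson correlation of log2 CPM over the 15 libraries. The 8 most similar were Zfp410 (r = 0.988), Hbb-bh1 (0.988), Hbb-y (0.977), Cdc123 (0.977), Rbbp4 (0.974), Pbx2 (0.972), Rcbtb2 (0.970) and Iqcb1 (0.969). The 15 points share their stages, so that any gene falling steadily with stage scores high. The other 6 were lower at P0 by far smaller factors. Zfp410 went from 66.2 ± 1.60 CPM (SD, n = 3) at E13.5 to 41.3 ± 2.18 at P0, and Rbbp4, a histone chaperone, from 393 ± 19.2 to 244 ± 13.2. Pbx2, a homeodomain protein, had 161 ± 5.70 and 73.1 ± 4.29 CPM, Rcbtb2 137 ± 8.65 and 62.4 ± 1.89, and Iqcb1 36.4 ± 0.223 and 17.5 ± 1.51. Among the other members, r with Hsd3b6 was 0.756 for Hsd3b1, 0.28 for Star, -0.06 for Srd5a1, -0.622 for Fdx1 and -0.763 for Cyp11a1. The prior count was not scaled to library totals, so that values of genes with few counts partly follow depth. Hsd3b2, with 0 counts in all libraries, had an r of -0.744 on this scale. The r values of Cyp11a1, Hsd3b1 and Star, which had few counts, are therefore not a measure of likeness in expression.

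Hbb-y and Hbb-bh1 were the 2 genes of the 8 that also fell by orders of magnitude. Both are embryonic β-like globins of primitive red blood cells. Hbb-y had 886, 1740 and 3160 CPM in the E13.5 libraries, 354, 459 and 658 at E14.5, and 9.15, 8.12 and 4.37 at E15.5. At E16.5 it had 1.68, 2.71 and 0.391 CPM and at P0 0.444, 0.914 and 0.435. In both E13.5 and E14.5 replicate 1 of Hbb-y was the lowest and replicate 3 the highest, as for Hsd3b6. Hbb-bh1 had 21.8, 34.4 and 50 CPM at E13.5, in the same order, but 6.40, 5.08 and 9.01 CPM at E14.5, where replicate 2 was the lowest.

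Hba-x, the embryonic α-like globin, was added after its values were seen. It had 127, 201 and 316 CPM at E13.5, 45.4, 54.1 and 76.5 at E14.5, 2.88, 3.58 and 1.45 at E15.5 and 0 in 2 of the 3 P0 libraries. Its libraries again had the order of Hsd3b6 within E13.5 and within E14.5.

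The ratio of Hsd3b6 to each embryonic globin was steady for Hbb-y and Hba-x over the first 2 stages and less so for Hbb-bh1. As Hsd3b6 counts per 1000 Hbb-y counts, the ratio was 7.89, 6.77 and 6.10 at E13.5 and 6.72, 6.56 and 7.11 at E14.5. At E15.5 the ratio was 14.7, 22 and 43, where Hsd3b6 had at most 13 counts. Against Hba-x, on the same scale, it was 55.1, 58.6 and 61 at E13.5, then 52.5, 55.7 and 61.2, and 46.8, 50 and 130 at E15.5. Against Hbb-bh1 it was 321, 343 and 385 at E13.5, and at E14.5 it was 372, 592 and 519, with 2 of 3 libraries above all of E13.5.

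Within E13.5, Hsd3b6 spanned 6.99 to 19.3 CPM between pools. Over the same libraries its counts per 1000 globin counts were 55.1 to 61 for Hba-x, 6.10 to 7.89 for Hbb-y and 321 to 385 for Hbb-bh1. Over the stages, globin RNA of the adult type had another course. Hba-a1, an adult α globin, had 178, 359 and 670 CPM at E13.5 and 232, 323 and 309 at P0, which overlap. At E14.5 it had 145, 162 and 275 CPM. Within E13.5 and within E14.5, Hba-a1, Hbb-bs and Hbb-bt also had the library order of Hsd3b6, and Hba-a2 had it at E13.5 only. The shared order was therefore not particular to the embryonic globins. Nor was a steady ratio within E14.5. There, Hsd3b6 counts per 1000 were 16.4, 18.6 and 17 for Hba-a1 and 13, 14.6 and 13 for Hbb-bs. They spread more for Hba-a2 (30.6, 43 and 35.7) and Hbb-bt (30.4, 33 and 23.8). Within E13.5 they were 39.3, 32.8 and 28.8 for Hba-a1 and 78.7, 47.7 and 27.8 for Hbb-bs, all above E14.5. The sum of 6 erythroid markers, 4 of them adult globins, was 423 to 2120 CPM at E13.5 and 1030 to 1480 CPM at P0. The share of Hsd3b6 RNA that came from blood cells was not tested. The 250-base RefSeq windows of Hbb-y and Hba-x held 1 and 2 GATA-type words, and Hbb-bh1 had no entry. Of the members that were higher at P0, Fdx1 had TGATAA at -192 and Cyp11a1 had AGATAG at -231 in 1 of its 2 windows.

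**Figure D2:**
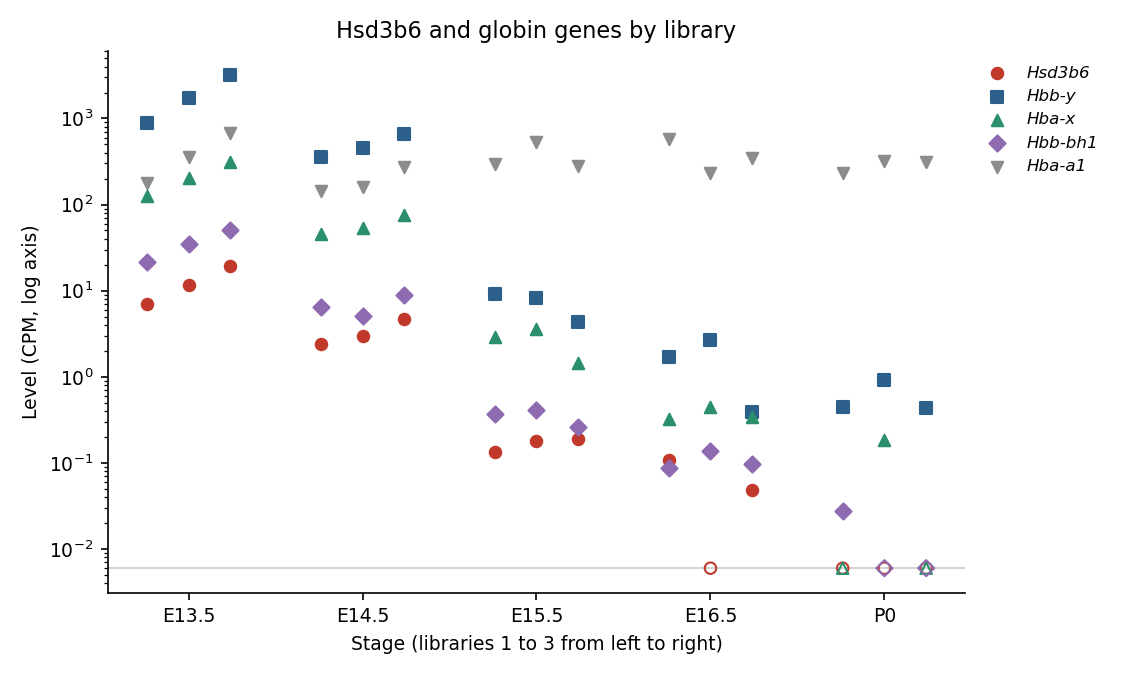
Level (CPM, log axis) of Hsd3b6, the embryonic globins Hbb-y, Hba-x and Hbb-bh1 and the adult globin Hba-a1 in each library by stage, libraries 1 to 3 from left to right. Open symbols on the grey line are libraries with 0 counts. Hsd3b6 falls with the embryonic globins, from 6.99 to 19.3 CPM at E13.5 to 0 at P0, while Hba-a1 was at 178 to 670 CPM at E13.5 and 232 to 323 CPM at P0.

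Markers of adrenal cortex, gonad and trophoblast were scarce at the stages at which Hsd3b6 was high, whereas those of epithelium, which skin shares, were not. Of 9 markers of adrenal cortex and gonad, the enzymes Cyp11b1 and Cyp11b2 had 0 counts in all libraries, and the sum of the list was 0.579 to 2.61 CPM at E13.5 and 0.660 to 0.878 CPM at E14.5. Of 6 trophoblast markers, Prl2c2 and Tpbpa had 0 counts in every library, and the summed level was 0.193 to 0.330 CPM at E13.5. The E13.5 library highest in Hsd3b6 was the lowest of its stage in both sums (0.579 and 0.193 CPM). The 6 epithelial markers summed to 254, 233 and 540 CPM in the E13.5 libraries and to 348, 418 and 515 CPM at E14.5. Within E13.5, the keratins Krt5 (34.9, 70.5 and 176 CPM), Krt14 (36, 37.3 and 97.8 CPM) and Krt15 (24.2, 27.6 and 65.7 CPM) had the library order of Hsd3b6. The other markers of the list did not at E13.5, with replicate 2 the lowest in Trp63 (23.2, 16.7 and 37 CPM), Epcam (73.4, 41.4 and 86.4 CPM) and Cdh1 (62.3, 40 and 77.1 CPM). Within E14.5, these 3 had the order of Hsd3b6 (Trp63 21.7, 24.6 and 33.9, Epcam 52, 58.7 and 72.8, Cdh1 55, 61.8 and 73.7 CPM). So did Krt5 and Krt15, whereas Krt14 (71.9, 81.8 and 76.5 CPM) did not. At P0, where Hsd3b6 was at 0, the epithelial sum was 972 to 3120 CPM. The part of epithelial RNA in the level of Hsd3b6 was not tested.

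Cyp11a1 had companions of its own, which were looked up after its rise was seen. The 8 genes most like it over the 15 libraries included 4 mast cell proteases, Cma1 (r = 0.940), Tpsb2 (0.930), Mcpt4 (0.929) and Cpa3 (0.929). The others were Lamp1 (0.932), Ttc22 (0.926), Aqp1 (0.917) and Neurl3 (0.911). Here too, any gene rising steadily with stage scores high. Because Cyp11a1 had few counts, depth also enters: Cyp11b1, with 0 counts in all libraries, had an r of 0.621 with it. Cma1, a chymase, had 0.158, 0.803 and 1.13 CPM at E13.5 and 42.8, 68.5 and 29.2 at P0. At E16.5 it had 58.6, 17.3 and 8.24 CPM, the same order of libraries as for Cyp11a1. The highest values of Cyp11a1 at E16.5 and P0 (2.39 and 2.62 CPM), and the highest mast cell sums (369 and 503 CPM), were in the 2 libraries with the high pituitary sums. Without both of these libraries Cyp11a1 was higher at P0 than at E13.5 by 3.60 on the log2 scale (SE 0.57, adjusted p of 0.000493 in edgeR). Of 9 mast cell markers, 8 were higher at P0 than at E13.5 by edgeR's test, with 29.8% of all tested genes higher. Tpsab1, Fcer1a, Mcpt4 and Tpsb2 had 0 to 14 counts in the E13.5 libraries and passed the filter on low counts through the later stages. The sum of the list went from 46.6 to 53.9 CPM at E13.5 to 259 to 503 CPM at P0. Kit, the receptor tyrosine kinase of mast and other cells, was the marker not called higher (44.5 and 49.8 CPM on average). Kit made up most of the sum at E13.5. The marker Hdc was its largest part at P0 (157 CPM on average, against 1.84 CPM at E13.5). The part of mast cell RNA in the rise of Cyp11a1 was not tested.

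**Figure D3:**
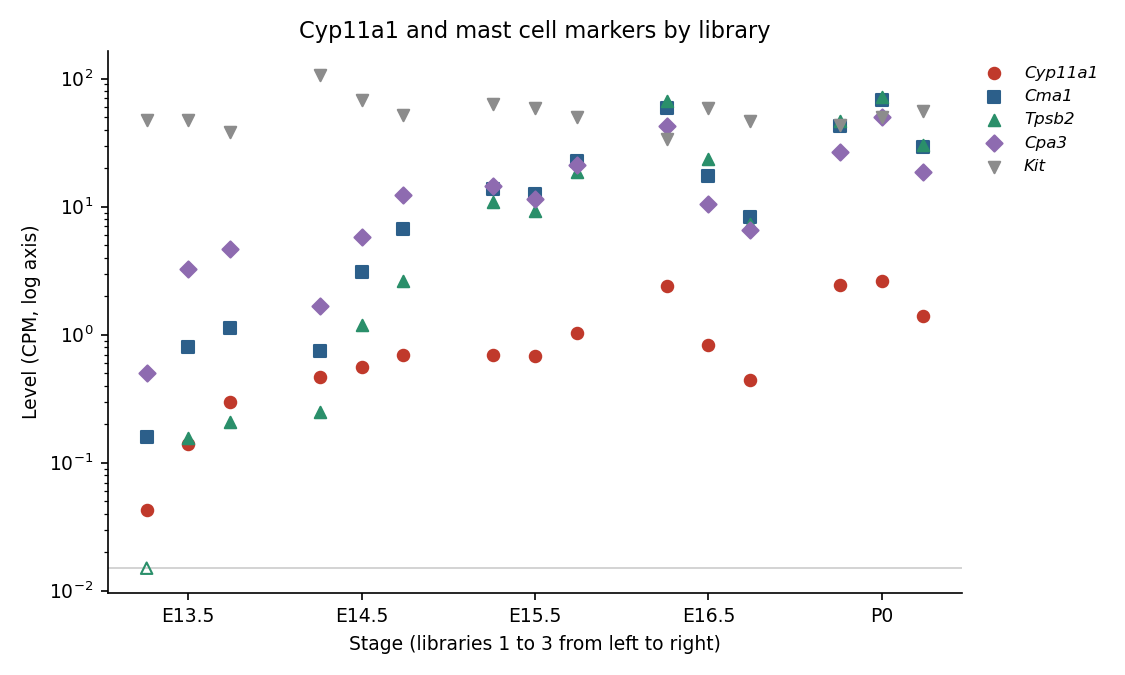
Level (CPM, log axis) of Cyp11a1 and of the mast cell markers Cma1, Tpsb2, Cpa3 and Kit in each library by stage, libraries 1 to 3 from left to right; the open symbol on the grey line is a library with 0 counts. Cyp11a1 and the 3 proteases share their order of libraries at E16.5, where Cyp11a1 had 2.39, 0.830 and 0.440 CPM.

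The wider steroid pathway was examined in 7 lists with 106 measured genes, of which 90 passed the filter on low counts. Between E13.5 and P0, 33 of the 90 rose and 12 fell, where 29.8% of all tested genes were higher and 26.8% lower. Their median log2 fold change was 0.18, against 0.03 for all tested genes. The shares of 29.8% and 26.8% are also the background for the counts of each list given below for P0 against E13.5. Of the 90, 4 fell at least 2-fold, as did 13.7% of all tested genes. They were Hsd11b2, Nr5a2, Esr2 and Pgr. Some of the genes that rose were scarce at E13.5 and passed the filter on low counts through the later stages, at which they were high.

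Of the other 3β-HSD genes, 3 were tested, 1 rose and 0 fell. Sdr42e1, a relative of the 3β-HSD family, rose from 2.51 to 9.60 CPM on average (log2 fold change 1.93, SE 0.35, adjusted p of 0.000527 in edgeR). Hsd3b7, which acts in bile acid synthesis, had means of 1.14 and 1.24 CPM, and Nsdhl, which acts in cholesterol synthesis, 37.6 and 38.2 CPM. Neither passed the test, so that the fall to 0 was seen in the Hsd3b6 and Hsd3b1 pair among the family members measured.

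Of the other synthesis enzymes and electron donors, 9 were tested, 3 rose and 0 fell. Cyp17a1, the 17α-hydroxylase, rose from a very low level, with a mean of 0.0483 CPM at E13.5 and 0.823 at P0 (log2 fold change 4.0, adjusted p of 0.00313). It passed the filter on low counts through the later stages, at which it was higher. Por, which donates electrons to microsomal P450 enzymes, and Srd5a3, another reductase of the Srd5a family, rose by 0.87 and 0.67 on the log2 scale. Fdxr, which reduces Fdx1, had 13.5 CPM at E13.5 and 17.6 CPM at P0 and did not pass (adjusted p of 0.0957). These 3 risers were named after their values were seen.

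Genes of steroid interconversion and breakdown had the highest median log2 fold change of the 7 lists, 1.30. Of 16 tested, 10 rose and 1 fell, with 29.8% of all tested genes higher and 26.8% lower. Akr1c18, the 20α-hydroxysteroid dehydrogenase that inactivates progesterone, had 0.0430, 0.0422 and 0 CPM at E13.5 and 3.69, 4.60 and 2.09 at P0 (log2 fold change 6.81, SE 0.92, adjusted p of 7.46e-05). Hsd17b2, which inactivates estradiol and testosterone, rose by 4.86 on the log2 scale, and Cyp3a13, a P450 enzyme that hydroxylates steroids, by 5.90. Akr1c18, Hsd17b2 and Cyp3a13 passed the filter on low counts through the later stages, at which they were high.

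The gene that fell was Hsd11b2, which inactivates glucocorticoids. It had 6.20, 5.27 and 5.75 CPM at E13.5 and 8.33, 6.08 and 5.48 at E14.5. From E15.5 its libraries were at 0.810 to 2.61 CPM, with 1.77, 1.01 and 1.44 at P0. It fell by 2.03 on the log2 scale from E13.5 to P0 (SE 0.36, adjusted p of 0.000534 in edgeR). For E15.5 against E14.5 the fall was 2.32 (SE 0.36), with an adjusted p of 0.00156 and 13.4% of all tested genes called lower there. It thus fell at the stage step at which Hsd3b6 lost most, but kept a measurable level.

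Genes of cholesterol supply went both ways, as did all tested genes at P0 (29.8% higher and 26.8% lower). Of 16 uptake and transport genes, 5 rose and 1 fell at P0. Tspo, a mitochondrial outer membrane protein, rose by 3.20 (SE 0.53, adjusted p of 0.000291), with 4.26, 3.96 and 7.08 CPM at E13.5 and 37.7, 70.8 and 31.5 at P0, and Scarb1, the HDL receptor, rose by 1.18 (SE 0.14) on the log2 scale. Of 19 cholesterol synthesis genes, 4 rose and 4 fell. Ebp, a sterol isomerase, rose by 1.28, while Cyp51, a lanosterol demethylase named after its values were seen, fell by 0.65.

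For E15.5 against E14.5, 8 of the 19 cholesterol synthesis genes fell and 1 rose (median log2 fold change -0.41), with 26.1% of all tested genes called. Hmgcs1, which makes HMG-CoA, fell from 454 to 209 CPM on average (adjusted p of 0.0112), and Cyp51 fell by 0.91 on the log2 scale (SE 0.18, adjusted p of 0.00477); both were named after their values were seen. Over all 90 context genes, 14 rose and 15 fell in this contrast. The count of 29 dropped to 8 when the first E14.5 library was left out. It was 14 and 17 in fits that lacked E15.5 library 3 or library 2, in that order. Choroid plexus markers summed to 1440, 31.9 and 790 CPM in the 3 E14.5 libraries. Neuron markers summed to 3770, 2670 and 1710 CPM there and to 1550, 933 and 753 CPM at E15.5. Hmgcs1 had 593, 412 and 356 CPM at E14.5 and 253, 188 and 185 CPM at E15.5. That is the library order of the neuron sums in both stages. The part of either tissue in these calls was not tested.

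Of 16 regulators, 6 rose and 2 fell at P0. Nr5a2, a nuclear receptor that binds promoters of steroid genes, had 17.5, 4.06 and 8.14 CPM at E13.5 and 2.30, 1.74 and 1.44 at P0, without overlap. It fell by 2.43 on the log2 scale (SE 0.52, adjusted p of 0.00164 in edgeR). Nr4a1, an immediate-early nuclear receptor, rose by 2.76 (SE 0.23, adjusted p of 4.53e-06), and Agtr1a, an angiotensin receptor, by 1.23, with an adjusted p of 0.0217 that was 0.0534 to 0.0884 without the second E13.5, the first P0 or the second P0 library. Mrap, the accessory protein of the melanocortin receptors, had 10.1, 43.6 and 1.09 CPM at P0 against at most 0.0573 at E13.5, and its 2 highest values (42.7 and 43.6 CPM) were in the libraries with the highest pituitary sums. Mrap did not follow these sums elsewhere: at P0 they were 13.9 CPM in replicate 1 and 85.6 CPM in replicate 3. Lipe, of the uptake and transport list, had the order of Mrap at P0 (56.6, 181 and 17.5 CPM). Mrap passed the filter on low counts through the later stages.

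Of 11 receptors and cochaperones, 4 rose and 4 fell. Esr1, estrogen receptor α, had 0.201, 0.282 and 0.238 CPM at E13.5 and 2.69, 2.10 and 1.35 at P0, a rise of 3.09 on the log2 scale (SE 0.38, adjusted p of 4.13e-05). Fkbp5, a cochaperone induced by glucocorticoids, rose by 1.23 on the log2 scale. Esr2, estrogen receptor β, fell by 1.45 (SE 0.44, adjusted p of 0.0129, and 0.0717 when only the 6 libraries of the contrast were fitted). Pgr, the progesterone receptor, fell by 1.28 (SE 0.47, adjusted p of 0.0343), with an adjusted p of 0.0653 to 0.101 in the 4 fits that left out the first or second E13.5 library or the first or second P0 library.

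**Figure D4:**
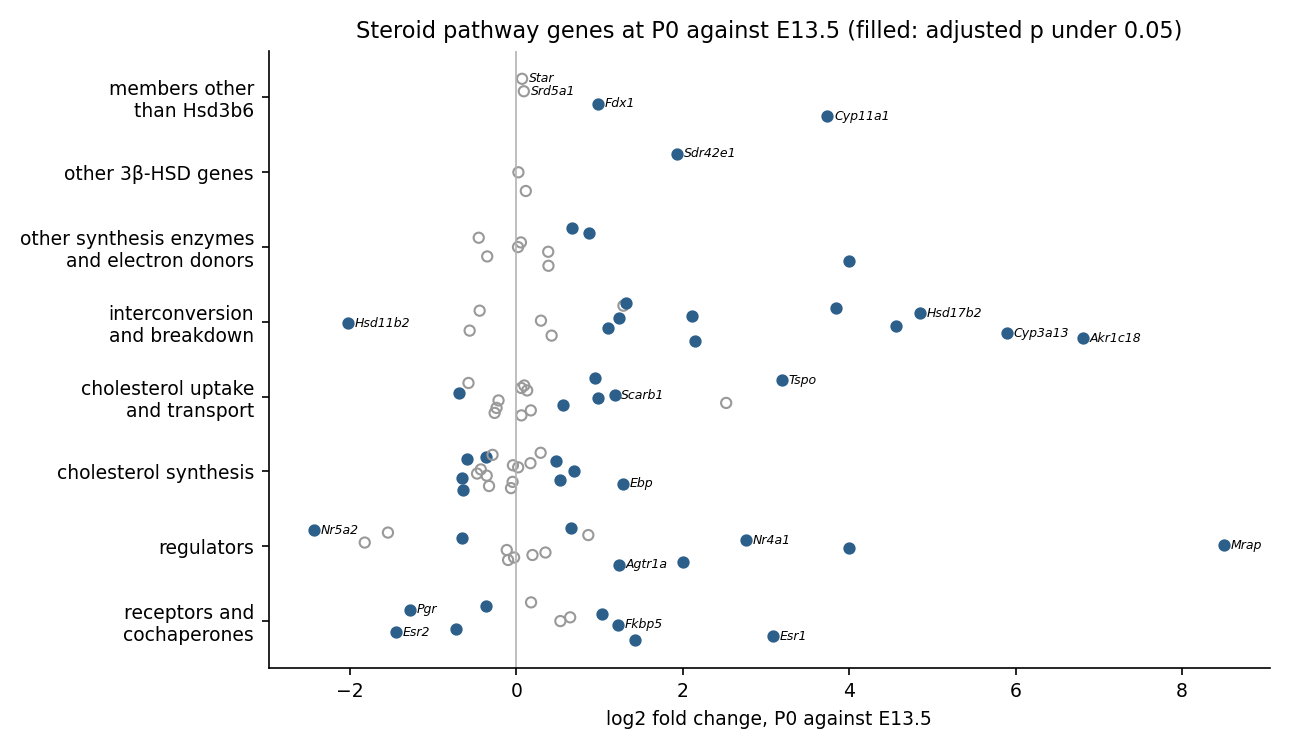
Log2 fold change of P0 against E13.5 for the 4 tested members other than Hsd3b6 and the 90 tested genes of the 7 steroid pathway lists, 1 row of points per list. Filled points have an adjusted p under 0.05 in edgeR, and the genes labelled are the members and genes that met the naming rule. The filled points lie on both sides of 0, with 33 of the 90 higher and 12 lower at P0.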

How the data were processed

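Counts of fragments per gene were deposited as 1 table of all 15 libraries. Per the file headers, the authors made them with featureCounts 2.0.1 on a GENCODE M18 annotation, counting read pairs on the reverse strand, and the submitters' processing notes name mm10, cutadapt 3.4, FastQC 0.11.9, Bowtie2, HISAT2 2.2.1 and SAMtools 1.12. Symbols came from GENCODE M21, in which 97.5% of genes had the same position. Stages were taken from the labels.

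Genes were filtered with filterByExpr by stage (minimum count 10), scaled by TMM and fitted with edgeR 4.0.16 in R 4.3.3, all 15 libraries together, by stage and with no replicate block. The quasi-likelihood test was adjusted by Benjamini-Hochberg over 22151 genes, with a threshold of 0.05. Log2 CPM used a prior count of 2, not scaled to the library total. Libraries of a stage differed beyond counting noise (chi-square 32.6 to 246 for each degree of freedom), so none was a repeat of another. On simulated counts for P0 against E13.5, the test called 22.4% of the 67 with a 2-fold change, 67.2% of the 67 with a 4-fold and 83.3% of the 66 with an 8-fold change. The simulation left 21417 genes unchanged, whereas 56.6% of the tested genes were called in the data. The adjustment was therefore stricter in the simulation, and its rates do not carry over to the tests reported here.

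The members, lists and tests were chosen with earlier results of these data known. Of 206 list symbols 202 matched, 1 by a synonym. From each list, up to 3 rises and 3 falls were named with an adjusted p under 0.05, a log2 fold change of at least 1 in size, 1 CPM or more on average where higher, and libraries that did not overlap. The 8 genes most like Hsd3b6 were named, and others are said to be named after their values were seen. Some genes that the rule covers are not reported here. Alternatives were DESeq2 1.42.0, its size factors or upper-quartile scaling in edgeR, other filters, thinning to the smallest total, the 6 libraries of a contrast, a replicate block, another prior count or Spearman for likeness, the summed cluster for Hsd3b6, and leaving out each library.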

Additional observations from a re-analysis of the deposited data

How the results depend on the processing

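With genes of a mean of at least 1 CPM (16520 genes), 2 members other than Hsd3b6 were left to test, and 1 was called both for P0 against E13.5 and over all stages. Leaving out 1 library gave 1 to 2 members called for P0 against E13.5 and 2 to 3 over all stages, and with the lowest count Fdx1 was lost without the second P0 library. For context genes it gave 34 to 44 for P0 against E13.5 and 8 to 31 for E15.5 against E14.5, and without both E16.5 replicate 1 and P0 replicate 2 (added after the data were seen) 38 for the latter. Of the 8 genes most like Hsd3b6, 5 were shared with a prior count of 0.5 and 2 with Spearman correlation, and 4 to 8 when 1 library was left out, with 5, 5 and 4 without P0 replicate 1, 2 and 3. The log2 ratio of Hsd3b6 at E15.5 to E13.5 was -6.25, and -6.54 to -5.82 with 1 library left out. Pgr also missed the threshold when thinned to the smallest total (adjusted p of 0.183), and Agtr1a without the first E16.5 and second P0 library (0.0676). No direction of a called change reversed under the alternatives run. Upper-quartile scaling moved the median of all genes for E15.5 against E14.5 from 0.03 to 0.16 on the log2 scale. Over all tested genes together, replicate numbers did not pair the libraries. Over 30 same-numbered pairs the deviations from stage means correlated at -0.327 to 0.537 (median -0.004), and 7 of 15 libraries were closest to one of their own number. Single genes could still follow the number. Krt5 rose from replicate 1 to replicate 3 within every stage (34.9, 70.5 and 176 CPM at E13.5, and 344, 493 and 1580 at P0). This is also the library order of Hsd3b6 at E13.5 and E14.5. Whether the numbers mark a shared factor was not tested. With the replicate number as a block, 2 members were called for P0 against E13.5, 2 over all stages and 0 between neighbouring stages, and 43 context genes for P0 against E13.5 and 28 for E15.5 against E14.5, and no call of a named gene changed. Depth limits Hsd3b6 from E15.5 on and Hsd3b1 at all stages, where counts were 33 or fewer per stage.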
